A study of Caenorhabditis briggsae with 6 samples.

Results

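Nuclear hormone receptors, homeobox factors and basic helix-loop-helix (bHLH) factors were followed in L3 larvae of C. briggsae that carried a mutation in Cbr-ivph-3. The set held 45 of the 23169 genes in the count table, namely 35 nuclear receptor genes, 8 homeobox genes and 2 bHLH genes. A gene entered the set when the study's gene lists gave it a symbol of the nhr, ceh or hlh series or one of a few named Hox or related genes, and Cbr-egl-5 was added by name. Genes appear in those lists because 1 of 3 mutants, Cbr-ivph-3, Cbr-spr-4 or Cbr-htz-1, changed their transcripts. In all, 38 members were listed for Cbr-ivph-3 alone, on the same 6 libraries that are described here, so their values below are a description with no test. The other 7 were listed for Cbr-spr-4 (6 genes) or Cbr-htz-1 (1 gene), whatever their levels in Cbr-ivph-3 larvae, although 3 of them (Cbr-nhr-232, Cbr-nhr-235 and Cbr-ceh-92) also appear in the Cbr-ivph-3 list, and for these 7 the comparison of genotypes was tested. The lists were held in shortened form, so further receptors and homeobox genes of the Cbr-ivph-3 list are not analysed here.

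Nuclear hormone receptors bind DNA through a zinc-finger domain and most also carry a pocket for a small ligand, often a steroid or fatty acid. Nematodes have a greatly expanded receptor family, and for most of its members no ligand is known. Homeobox factors assign cell and body-region identities, as the Hox gene egl-5 does in the tail of C. elegans, while bHLH factors bind DNA as dimers in which the E protein HLH-2 is a common partner.

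Whole AF16 wild-type hermaphrodites were compared with whole PS9217 hermaphrodites, which carry Cbr-ivph-3(sy5216), a single-base substitution that creates a premature stop codon. Both strains were grown at 20 °C on bacteria, synchronized by bleaching and collected at the L3 stage, once the vulval precursor cells of a few animals had begun to divide, with 3 independent biological replicates per genotype. PS9217 is 1 mutant strain, and no second allele or rescued strain was among these libraries. RNA from whole larvae mixes all tissues, so fewer cells of a type and less RNA per cell cannot be told apart in any value below.

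The deposited counts summed to 22.8 M to 30.9 M per library. Levels are given in CPM, that is read-pair counts per M counts of the library after edgeR's TMM scaling (trimmed mean of M-values). Because CPM are not corrected for transcript length, they are compared between libraries and not between genes. Cbr-ivph-3 itself had 32.99 to 36.5 CPM in wild type and 20.9 to 21.03 CPM in the mutant, and since a stop codon leaves the transcript to be made this is a weak check of the labels. Mutant replicate 1 stood apart from mutant replicates 2 and 3. The median size of its log2 difference from the mean of the other libraries of its genotype was 0.50 over all tested genes, against 0.12 to 0.26 for the other 5 libraries, and was 0.34 over the tested members, against 0.12 to 0.21. Its summed level of 11 germ line markers was 1028 CPM, against 418 and 427 CPM in the other mutant libraries and 412 to 417 CPM in wild type. These sums hid opposite differences between markers. With all libraries edgeR called 3 of the 11 markers higher and 0 lower, beside 11.7% and 9.80% of all tested genes. Without mutant replicate 1 it called 3 higher and 8 lower, beside 31.1% and 28.6% of all tested genes. Cbr-gld-1 had 83.2 to 94.3 CPM in wild type and 394, 231 and 238 CPM in the mutant, whereas Cbr-pgl-1 had 140.2 to 158 CPM and 247.4, 59.5 and 61.8 CPM. The 4 sperm markers summed to 19.9 CPM in mutant replicate 1, against 0.709 and 0.784 CPM in mutant replicates 2 and 3 and 0.744 to 1.64 CPM in wild type. The vitellogenin gene Cbr-vit-6, which marks the adult intestine, had 56.3 CPM there, against 1.16 and 1.74 CPM in the other mutant libraries and 4.73 to 6.43 CPM in wild type.

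Markers of larval tissues were present in every library and many were lower in the mutant. The 5 muscle markers summed to 9135 to 10711 CPM in wild type and 4065 to 6283 CPM in the mutant, the 4 intestine markers to 1679 to 1757 and 593 to 707 CPM, and the 4 epidermis markers to 2701 to 3123 and 1289.96 to 1452 CPM. Every mutant library was below wild type for 5 of 5 muscle, 4 of 4 intestine and 3 of 4 epidermis markers, and for 4 of 6 neuron markers, which summed to 605 to 628 and 424 to 617 CPM. All tested genes gave 20.1% in this direction, and nothing is read from these counts, since all but 3 of these markers were named through the list for Cbr-ivph-3 and so chosen on these libraries. The neuron markers Cbr-flp-1 and Cbr-flp-11 had mutant replicate 1 within the wild-type range and mutant replicates 2 and 3 above every wild-type library. The neuron sum was 424 CPM in mutant replicate 1 and 617 and 614 CPM in mutant replicates 2 and 3. The part of any of these marker differences in the members' values was not tested, and counts of called genes are given with and without mutant replicate 1.

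Over all genes, edgeR's quasi-likelihood test with Benjamini-Hochberg adjustment called 1667 of 14241 tested genes higher (11.7%) and 1395 lower (9.80%) in the mutant at an adjusted p under 0.05. Without mutant replicate 1 the same test called 4497 genes higher (31.1%) and 4147 lower (28.6%) of 14476. Without wild-type replicate 1, 2 or 3 it called 605, 720 or 654 genes higher and 635, 712 or 625 lower, and without mutant replicate 2 or 3 it called 935 or 935 higher and 702 or 683 lower. Scaling by library totals alone, in place of TMM, gave 3280 genes higher and 646 lower and moved the median of all log2 fold changes from 0.06 to 0.37, so fold changes under that scaling are to be read relative to this shift.

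**Figure D1:**
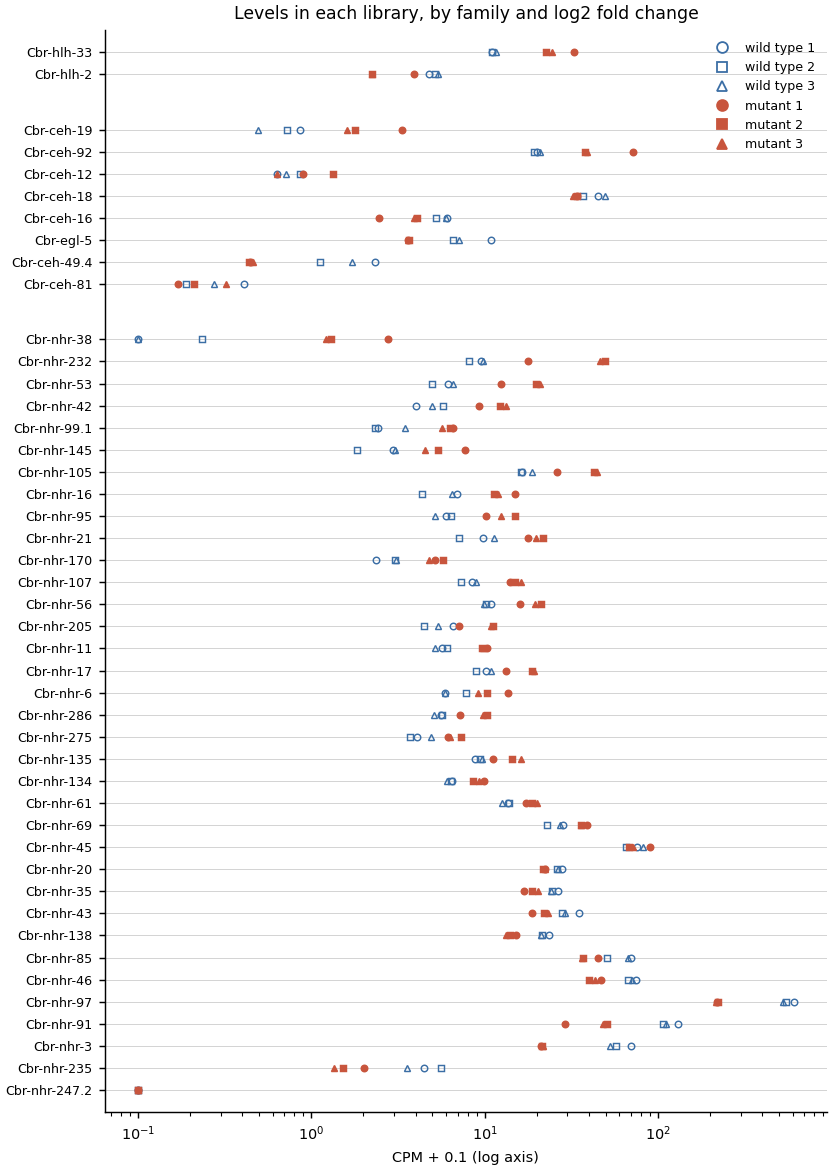
Level of each of the 45 members in each library. The horizontal axis is CPM with 0.1 added, on a log scale, open symbols are the 3 wild-type libraries and filled symbols the 3 mutant libraries, and genes are grouped by family (bHLH at the top, then homeobox, then nuclear receptors) and ordered by log2 fold change. Cbr-nhr-97 is far to the right with both genotypes well apart, Cbr-nhr-38 lies at or near 0 CPM in wild type, and Cbr-nhr-247.2 is at 0 in all 6 libraries.

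Among the 7 genes that were members whatever their level in Cbr-ivph-3 larvae, Cbr-nhr-232 and Cbr-ceh-92 rose and Cbr-nhr-235 fell in the mutant, Cbr-ceh-12 and Cbr-nhr-45 did not pass the test, and 2 genes had too few counts to be tested. The 3 calls among 5 tested genes are set against 21.5% of all tested genes called in either direction. Of 8 genes outside the set that were listed in the same way, given further below, 0 were called.

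The receptor gene Cbr-nhr-232 (WBGene00031130) had 9.42, 7.98 and 9.71 CPM in wild-type replicates 1, 2 and 3. In mutant replicates 1, 2 and 3 it had 17.7, 49.2 and 46.2 CPM. Every mutant library was above every wild-type library, and mutant replicate 1 was the one nearest to wild type. The mean rose from 9.04 ± 0.926 to 37.7 ± 17.3 CPM (SD, n = 3 each), and edgeR gave 2.06 for the log2 fold change, with a standard error of 0.38 and an adjusted p of 0.0123. The call was lost when wild-type replicate 1, 2 or 3 was left out (log2 fold change 2.04, 1.94 or 2.07, adjusted p = 0.0607, 0.0701 or 0.0584 from edgeR). Without mutant replicate 1 the log2 fold change was 2.39 (adjusted p = 1.28e-06 from edgeR), and the adjusted p ran from 1.28e-06 to 0.0701 over the 14 alternatives.

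The homeobox gene Cbr-ceh-92 (WBGene00034043) had 20.1, 19.3 and 20.9 CPM in the wild-type libraries in the same order and 71.8, 38.1 and 38.96 CPM in the mutant libraries. Every mutant library was again above wild type, but here mutant replicate 1 lay farthest from wild type. The mean rose from 20.1 ± 0.802 to 49.6 ± 19.2 CPM (SD, n = 3 each), and edgeR gave 1.30 for the log2 fold change, with a standard error of 0.27 and an adjusted p of 0.0164. Leaving out wild-type replicate 1, 2 or 3 ended this call too (log2 fold change 1.27, 1.25 or 1.30, adjusted p = 0.0892, 0.0929 or 0.0832 from edgeR). Without mutant replicate 1 the log2 fold change was 0.93 (adjusted p = 3.46e-05 from edgeR), and the range over the 14 alternatives was 3.46e-05 to 0.0929.

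Cbr-nhr-235 (WBGene00031739), also a receptor gene, had 4.36, 5.48 and 3.46 CPM in wild type and 1.90, 1.42 and 1.26 CPM in the mutant. Every mutant library was below every wild-type library. The mean fell from 4.43 ± 1.02 to 1.53 ± 0.335 CPM (SD, n = 3 each), for which edgeR gave a log2 fold change of -1.54 with a standard error of 0.27 and an adjusted p of 0.0101. It was called lower in all 14 alternatives, with adjusted p from 6.55e-05 to 0.0495.

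Cbr-nhr-45 (WBGene00034982), whose C. elegans counterpart acts in the detoxification response to mitochondrial dysfunction, had 75.4, 65.6 and 81.6 CPM in wild type and 90.4, 68.2 and 71.96 CPM in the mutant. The genotypes overlapped, and its log2 fold change of 0.05 (standard error 0.16, edgeR's adjusted p = 0.850) was negative without mutant replicate 1 (-0.09) or without wild-type replicate 2 (-0.06). Cbr-ceh-12 (WBGene00026771), counterpart of the HB9-type gene that shapes the identity of VB motor neurons in C. elegans, had 0.533, 0.758 and 0.612 CPM in wild type and 0.796, 1.23 and 0.532 CPM in the mutant. These levels overlapped as well (log2 fold change 0.41, standard error 0.39, edgeR's adjusted p = 0.495), and the log2 fold change was 0.054 without mutant replicate 2 and 0.67 without mutant replicate 3. Neither gene was called in any of the 14 alternatives.

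Cbr-ceh-81 (WBGene00039330) did not pass the filter on low counts, with 13 counts in all in wild type and 13 in the mutant. Scaled to library size, mutant over wild type came to 0.741 (exact 95% interval from 0.317 to 1.74, counting error only), so no difference was detectable at this depth. Cbr-nhr-247.2 (WBGene00040651) had 0 counts in all 6 libraries, which allows levels of up to 0.0840 to 0.134 CPM per library if a count of 0 is taken to allow 3 counts.

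**Figure D2:**
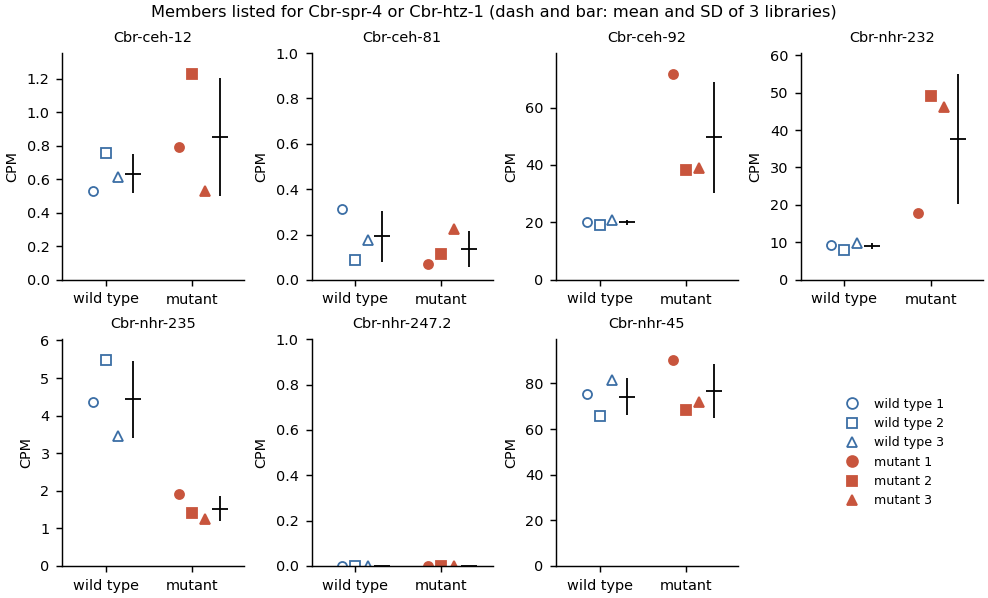
Levels of the 7 members listed for Cbr-spr-4 or Cbr-htz-1, in CPM on linear axes that start at 0, with 1 symbol per library and the mean and SD of 3 libraries as a dash and bar. Cbr-ceh-92 and Cbr-nhr-232 have all mutant libraries above wild type with mutant replicate 1 at opposite ends, Cbr-nhr-235 has all mutant libraries below, and Cbr-nhr-45 and Cbr-ceh-12 overlap.

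Of the 31 nuclear receptor genes listed for Cbr-ivph-3 alone, 22 were higher in every mutant library than in any wild-type library and 9 were lower in every mutant library. Over all tested genes the genotypes did not overlap in 42.3%, with every mutant library higher in 22.2% and lower in 20.1%. Since these receptors were chosen by a comparison of the same libraries, nothing is read from their count. Their sizes differed widely, from a log2 fold change of 5.08 for Cbr-nhr-38 to -1.49 for Cbr-nhr-3.

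Among receptors lower in the mutant, Cbr-nhr-97 (WBGene00035366) had 608, 549.9 and 529 CPM in the wild-type libraries and 218, 223 and 217 CPM in the mutant libraries. The mutant libraries were within a few CPM of each other and all well below wild type. The log2 fold change was -1.36 (standard error 0.12). With this gene included, the summed level of all 45 members was 1424, 1253 and 1301 CPM in wild type and 971, 996 and 991 CPM in the mutant. Without Cbr-nhr-97 the sums were 816, 703 and 772 CPM and 753, 772 and 774 CPM, and the genotypes overlapped.

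Cbr-nhr-91 (WBGene00029650), a receptor most like the vertebrate germ cell nuclear factor, had 131, 106 and 111 CPM in wild type and 29.1, 50.9 and 47.9 CPM in the mutant. Mutant replicate 1 was the lowest, and all mutant libraries were below wild type (log2 fold change -1.44, standard error 0.23; -0.76 on the log2 scale for mutant replicate 1 against the other mutant libraries). Cbr-nhr-3 (WBGene00029551) had 69.4, 57.2 and 52.5 CPM in wild type and 21.00, 21.2 and 21.7 CPM in the mutant. Its mutant libraries were nearly equal, while its wild-type libraries differed by more among themselves (log2 fold change -1.49, standard error 0.14).

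Cbr-nhr-46 (WBGene00039011) had 74.2, 66.98 and 70.3 CPM in wild type and 46.7, 39.9 and 43.5 CPM in the mutant, a log2 fold change of -0.70 (standard error 0.12). Cbr-nhr-85 (WBGene00029816), whose C. elegans counterpart is a receptor of the E75 and Rev-erb type that acts in developmental timing, had 69.5, 51.1 and 66.8 CPM in wild type and 45.1, 36.9 and 36.6 CPM in the mutant. The gap between the lowest wild-type library, replicate 2, and the highest mutant library, replicate 1, was smaller than the SD of the wild-type libraries, 9.96 CPM, and larger than that of the mutant libraries, 4.83 CPM (log2 fold change -0.66, standard error 0.17). Cbr-nhr-35 (WBGene00034961) had 26.4, 24.3 and 24.2 CPM in wild type and 16.7, 18.7 and 20.1 CPM in the mutant (log2 fold change -0.43, standard error 0.12). The remaining 3 lower receptors, Cbr-nhr-138, Cbr-nhr-43 and Cbr-nhr-20, had log2 fold changes of -0.65, -0.53 and -0.28. That of Cbr-nhr-20, with 26.00 to 27.8 CPM in wild type and 21.6 to 22.3 CPM in the mutant, was 0.031 when libraries were scaled by their totals alone.

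Among receptors higher in the mutant, Cbr-nhr-38 (WBGene00041121) was nearly silent in wild type, with 0, 0.134 and 0 CPM. In the mutant it had 2.66, 1.19 and 1.12 CPM. The underlying counts were 3 in wild type and 149 in the mutant, all libraries summed, and mutant over wild type came to 36.8 when scaled to library size (exact 95% interval from 12.4 to 181, counting error only). The wide interval comes from the 3 wild-type counts, all of them in replicate 2, and the fitted log2 fold change of 5.08 depends on the small count that edgeR adds. With 1 library left out it ran from 4.505 to 8.50, the latter without wild-type replicate 2.

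Cbr-nhr-53 (WBGene00027398) had 6.04, 4.86 and 6.43 CPM in wild type and 12.4, 19.7 and 20.8 CPM in the mutant, with mutant replicate 1 nearest to wild type (log2 fold change 1.61, standard error 0.24). Cbr-nhr-99.1 (WBGene00024612) had 2.31, 2.23 and 3.37 CPM in wild type and 6.47, 6.23 and 5.57 CPM in the mutant (log2 fold change 1.21, standard error 0.22). Cbr-nhr-6 (WBGene00031286), counterpart of the NR4A-type receptor needed for spermatheca development in C. elegans, had 5.82, 7.67 and 5.77 CPM in wild type and 13.6, 10.2 and 9.01 CPM in the mutant. Its highest wild-type library, replicate 2, and lowest mutant library, replicate 3, were close together (log2 fold change 0.77, standard error 0.22).

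Both pairs of members that are direct neighbours in the RefSeq gene order of assembly CB4 had been listed as higher in Cbr-ivph-3 mutants. That listing came from these same libraries, so nothing is read from the shared direction within a pair. In the pair Cbr-nhr-107 (WBGene00038339) and Cbr-nhr-42 (WBGene00038340), the former had 8.31, 7.18 and 8.84 CPM in wild type and 13.98, 14.9 and 16.1 CPM in the mutant. Cbr-nhr-42 had 3.91, 5.66 and 4.90 CPM in wild type and 9.17, 12.2 and 13.2 CPM in the mutant. The log2 fold changes of the pair were 0.89 and 1.25 (standard errors 0.14 and 0.22), and mutant replicate 1 was the lowest mutant library for both.

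In the pair Cbr-nhr-286 (WBGene00038356) and Cbr-nhr-135 (WBGene00038357), the former had 5.47, 5.57 and 5.03 CPM in wild type and 7.09, 10.2 and 9.66 CPM in the mutant. Cbr-nhr-135 had 8.71, 9.32 and 9.58 CPM in wild type and 11.1, 14.32 and 16.04 CPM in the mutant. Again mutant replicate 1 was the lowest of the 3 for both genes, and the log2 fold changes were 0.75 and 0.59 (standard errors 0.19 and 0.17). Cbr-nhr-95 and Cbr-nhr-145 have consecutive locus names but were not paired by the RefSeq order. In the mutant libraries they had 10.1, 14.9 and 12.3 CPM and 7.64, 5.30 and 4.42 CPM. Mutant replicate 1 was thus the lowest for Cbr-nhr-95 and the highest for Cbr-nhr-145. Neighbouring receptor genes can be similar in sequence, and the study's list of counting settings leaves its entry on reads that match several features empty, so the values of neighbours may not be independent.

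The remaining 14 receptors had log2 fold changes from 0.49 for Cbr-nhr-69 to 1.21 for Cbr-nhr-145, with mean levels of 2.50 to 26.0 CPM in wild type and 5.13 to 37.8 CPM in the mutant. At the low end Cbr-nhr-69, Cbr-nhr-61, Cbr-nhr-134 and Cbr-nhr-275 had log2 fold changes of 0.49, 0.50, 0.56 and 0.65. Those of Cbr-nhr-17, Cbr-nhr-11, Cbr-nhr-205, Cbr-nhr-56 and Cbr-nhr-170 were 0.78, 0.84, 0.84, 0.87 and 0.91. At the high end those of Cbr-nhr-21, Cbr-nhr-95, Cbr-nhr-16, Cbr-nhr-105 and Cbr-nhr-145 were 1.07, 1.11, 1.12, 1.14 and 1.21. All 14 had every mutant library above every wild-type library. The narrowest case was Cbr-nhr-205, with 4.37 to 6.49 CPM in wild type and 7.02 to 11.04 CPM in the mutant.

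**Figure D3:**
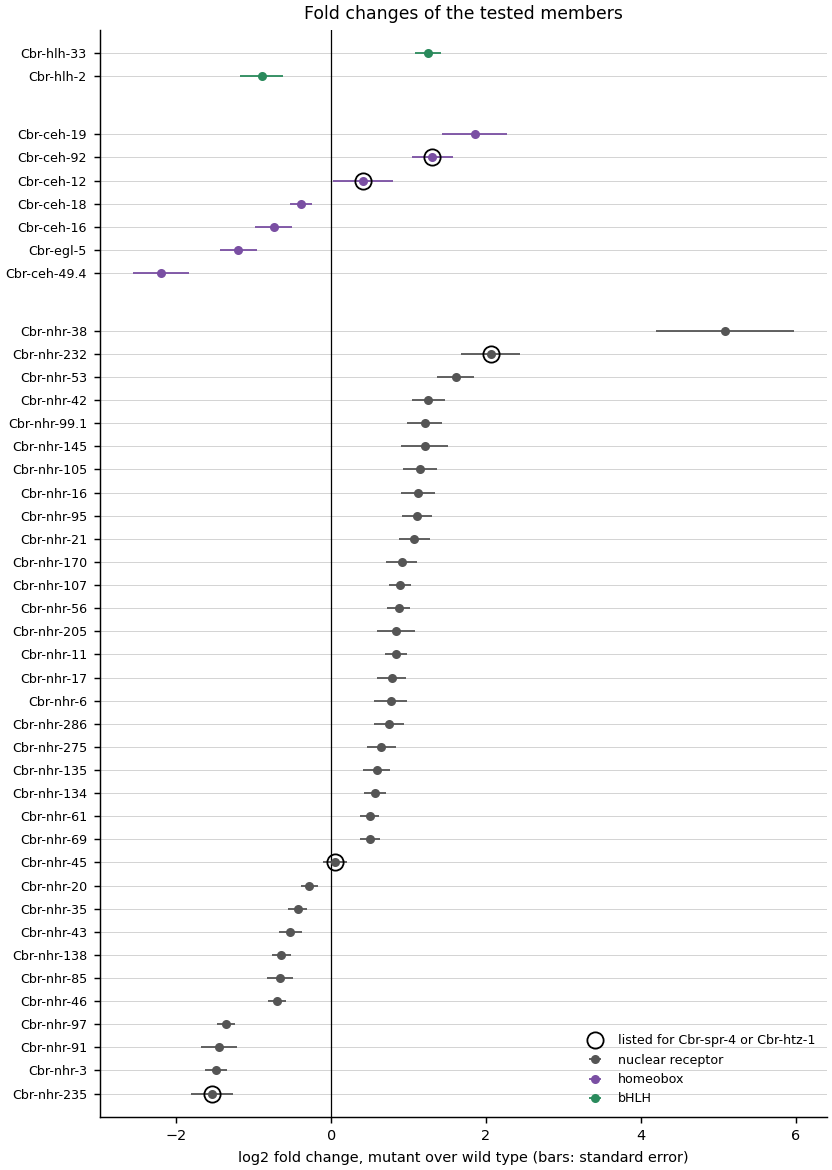
Log2 fold change of mutant over wild type for the 43 members that passed the filter on low counts, with standard errors as bars and families in colour, and with rings around the 5 tested members listed for Cbr-spr-4 or Cbr-htz-1. Most receptors lie to the right of 0 and most homeobox genes to the left, with Cbr-nhr-38 at 5.08 and Cbr-ceh-49.4 at -2.20 as the extremes (4.505 to 8.50 for Cbr-nhr-38 with 1 library left out). The unringed genes were chosen by a comparison of these libraries.

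Of the 7 homeobox genes that passed the filter, 2 were higher in every mutant library, 4 were lower and 1 overlapped, beside 22.2% of all tested genes higher and 20.1% lower. Nothing is read from this count, since 5 of the 7 were chosen on these libraries. The Hox gene Cbr-egl-5 (WBGene00023537), counterpart of the Abdominal-B-type gene that patterns the tail of C. elegans, had 10.8, 6.51 and 7.0 CPM in wild type and 3.53, 3.54 and 3.53 CPM in the mutant. The mutant libraries were nearly equal, while wild-type replicate 1 was well above the other wild-type libraries. The log2 fold change was -1.20 (standard error 0.23).

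Cbr-ceh-16 (WBGene00041370), counterpart of the engrailed gene that acts in the seam cells of C. elegans, had 5.999, 5.13 and 5.91 CPM in wild type and 2.35, 3.99 and 3.81 CPM in the mutant. Mutant replicate 1 was the lowest library (log2 fold change -0.75, standard error 0.24). Cbr-ceh-18 (WBGene00034846), counterpart of the POU gene of the gonadal sheath cells of C. elegans, had 44.8, 36.7 and 49.4 CPM in wild type and 33.8, 34.02 and 32.05 CPM in the mutant. The lowest wild-type library, replicate 2, lay just above the mutant libraries (log2 fold change -0.39, standard error 0.14).

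Cbr-ceh-49.4 (WBGene00038981), of the ONECUT class, had 2.22, 1.03 and 1.62 CPM in wild type and 0.346, 0.336 and 0.364 CPM in the mutant, with little spread among the mutant libraries, all at a low level (log2 fold change -2.20, standard error 0.37). Cbr-ceh-19 (WBGene00037275), whose C. elegans counterpart acts in the MC pharyngeal neurons, had 0.755, 0.624 and 0.394 CPM in wild type and 3.25, 1.68 and 1.51 CPM in the mutant. It was low in both genotypes and highest in mutant replicate 1 (log2 fold change 1.85, standard error 0.42).

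The bHLH genes went in opposite directions. Cbr-hlh-2 (WBGene00040606), counterpart of the C. elegans E protein that acts in the anchor cell of the gonad, the cell that induces the vulva, had 4.67, 5.08 and 5.29 CPM in wild type and 3.81, 2.13 and 2.13 CPM in the mutant. Mutant replicates 2 and 3 were nearly equal, and mutant replicate 1 lay between them and wild type (log2 fold change -0.90, standard error 0.28, and -1.24 without mutant replicate 1). Cbr-hlh-33 (WBGene00035461) had 10.98, 10.97 and 11.6 CPM in wild type and 32.9, 22.6 and 24.4 CPM in the mutant, with every mutant library above wild type by a wide margin (log2 fold change 1.25, standard error 0.17).

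Counted over the whole set, edgeR called 24 of the 43 tested members higher and 10 lower, beside 11.7% and 9.80% of all tested genes. By family the calls were 21 higher and 8 lower of 34 receptors, 2 and 2 of 7 homeobox genes, and 1 and 0 of 2 bHLH genes. Not called among the members listed for Cbr-ivph-3 alone were 7 genes, Cbr-nhr-20, Cbr-nhr-35, Cbr-nhr-135, Cbr-nhr-205, Cbr-ceh-16, Cbr-ceh-18 and Cbr-hlh-2. Nothing is read from these counts, since all but 5 of the tested members were chosen on these libraries. They moved with the libraries used. Without wild-type replicate 1, 2 or 3 the counts were 5, 9 or 5 higher and 6, 9 or 7 lower, without mutant replicate 2 or 3 they were 15 or 16 higher and 6 or 6 lower, and without mutant replicate 1 they were 26 higher and 15 lower (59.7% of all tested genes were then called in either direction). Of 599 log2 fold changes of members under the 14 alternatives, 596 had the sign given here, a direction that the choice of most members had already fixed, and the exceptions were those of Cbr-nhr-20 and Cbr-nhr-45 given above. The median log2 fold change was 0.65 over the 43 tested members, 0.76 over the 34 receptors and -0.39 over the 7 homeobox genes, beside 0.06 over all tested genes. Nothing is read from these medians either, since most members were chosen on these libraries, from lists held in shortened form. Scaled by library totals alone, 27 members had every mutant library above wild type and 9 below, in place of 26 and 15, while DESeq2's size factors and upper-quartile scaling left 26 and 15.

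The mutant libraries differed among themselves in a way that varied between members. In 26 members every mutant library was above wild type, and mutant replicate 1 was the nearest to wild type in 14 of these, the farthest in 11 and between the others in 1. In the 15 members with every mutant library below wild type it was nearest in 5, farthest in 5 and between in 5. Over all tested genes without overlap the shares were 46.9% nearest and 43.7% farthest among higher genes, and 44.4% and 47.7% among lower genes.

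The log2 ratio of mutant replicate 1 to the mean of mutant replicates 2 and 3 had a median of -0.01 over the tested members and 2.02 over the 11 germ line markers. Single members spanned a wide range, from -1.42 for Cbr-nhr-232 to 1.14 for Cbr-nhr-38. The homeobox genes Cbr-ceh-19 and Cbr-ceh-92 had ratios of 0.99 and 0.90, and the receptor genes Cbr-nhr-105 and Cbr-nhr-53 had -0.75 and -0.71. By contrast Cbr-nhr-97, Cbr-nhr-3 and Cbr-egl-5 had ratios of -0.02, -0.03 and -0.0027, so for these genes the library that stood apart matched the other mutant libraries.

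**Figure D4:**
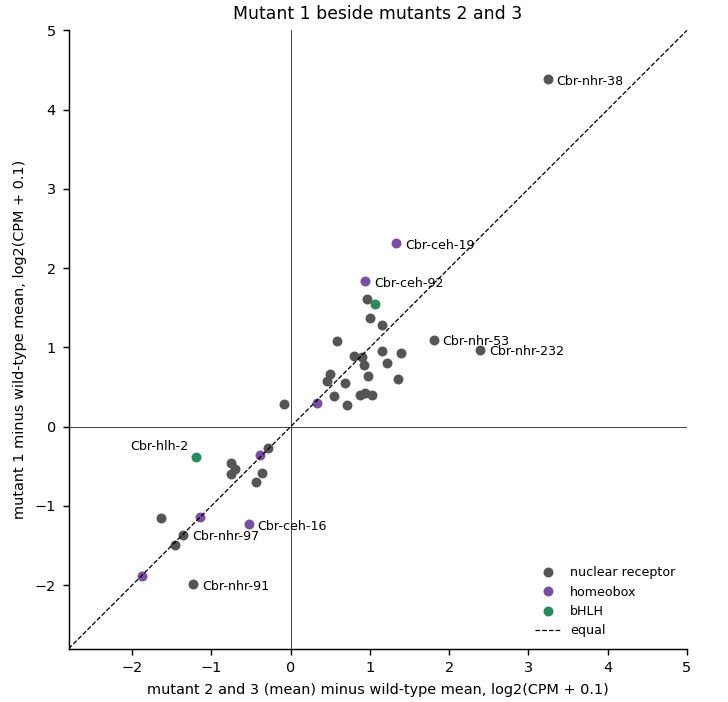
Difference from the wild-type mean, in log2(CPM + 0.1), in mutant replicate 1 (vertical axis) and in the mean of mutant replicates 2 and 3 (horizontal axis), with 1 point for each of the 43 tested members and the dashed line marking equal differences. All but 1 point lie on the same side of 0 on both axes, Cbr-nhr-232 and Cbr-nhr-53 lie below the line, and Cbr-ceh-92, Cbr-ceh-19 and Cbr-nhr-38 lie above it.

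A list of 10 factors of the same 3 classes under other names was drawn from the study's shortened lists. It need not be complete. Of the 10, 8 had been listed for Cbr-ivph-3 on these libraries, so these too are described without a test. The other 2, Cbr-unc-55 and Cbr-mxl-3, overlapped with wild type. Their log2 fold changes were -0.23 and -0.03 (edgeR's adjusted p = 0.445 and 0.930). Every mutant library was below wild type in 8 of the 10, beside 20.1% of all tested genes, and in 5 of the 10 with library totals alone (9.66% of all tested genes). Of the 10, edgeR called 5 lower (9.80% of all tested genes), with a median log2 fold change of -0.51. The calls numbered 3, 3 or 2 without wild-type replicate 1, 2 or 3, and 3 or 3 without mutant replicate 2 or 3. Without mutant replicate 1 they numbered 8, when 28.6% of all tested genes were called lower. Since 8 of the 10 genes were chosen on these libraries, nothing is read from their counts or their median.

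Cbr-sex-1, a receptor gene that in C. elegans is part of the signal of X-chromosome number, had 9.999 to 10.7 CPM in wild type and 6.86 to 7.85 CPM in the mutant. The homeobox genes Cbr-cog-1, which acts in the vulva and in a taste neuron in C. elegans, and Cbr-hmbx-1 had log2 fold changes of -0.51 and -1.36. The Otx-type gene Cbr-ttx-1 and the Prospero-type gene Cbr-pros-1 had -0.51 and -0.41. Of the bHLH class, Cbr-ref-1 had 6.91 to 9.02 CPM in wild type and 1.75 to 3.39 CPM in the mutant, Cbr-cky-1 had 8.53 to 16.2 and 4.01 to 5.41 CPM, and the hypoxia factor gene Cbr-hif-1 had 556 to 600.0 and 304 to 412 CPM. The genotypes did not overlap for any of these bHLH genes.

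A list of 31 transcription factors of other classes was drawn up in the same way and need not be complete either. Of these, 24 had every mutant library below wild type and 4 had every mutant library above it, with a median log2 fold change of -0.62. Over all tested genes the shares were 20.1% below and 22.2% above. Library totals alone gave 19 below and 6 above, where the shares of all tested genes were 9.66% and 36.7%. All but 5 of the 31 were listed for Cbr-ivph-3 on these libraries, so nothing is read from these counts or from the median. With TMM scaling none of those 5 had every mutant library below wild type. Cbr-zip-1 and Cbr-xbp-1 had every mutant library above it, and Cbr-zip-2, Cbr-zip-10 and Cbr-ztf-15 overlapped. By edgeR 19 were called lower and 1 higher, beside 9.80% and 11.7% of all tested genes. The count called lower was 10, 11 or 10 without wild-type replicate 1, 2 or 3, 11 or 10 without mutant replicate 2 or 3, and 25 without mutant replicate 1 (28.6% of all tested genes). The zinc-finger gene Cbr-blmp-1 and the GATA factor gene Cbr-elt-3 had -0.62 and -0.99, while Cbr-pqm-1 had 0.81. Cbr-elt-2 and Cbr-elt-3, both in this list, were also used above as an intestine and an epidermis marker. Among the related and other transcription factors and the sterol genes, 8 were listed for Cbr-spr-4 or Cbr-htz-1 and could be tested, Cbr-unc-55, Cbr-mxl-3, Cbr-zip-1, Cbr-zip-2, Cbr-zip-10, Cbr-xbp-1, Cbr-ztf-15 and Cbr-ncr-1. Of these 8, edgeR called 0, beside 21.5% of all tested genes, and limma-voom also called 0. With edgeR 2 had an unadjusted p under 0.05, beside 5068 of all 14241 tested genes. Cbr-xbp-1, of the unfolded protein response, was called higher by DESeq2 (log2 fold change 0.69, adjusted p = 0.0348) and by edgeR with upper-quartile scaling (0.79), with library totals (1.02) or without mutant replicate 1 (0.44). Cbr-zip-1 was called higher with library totals (0.62), and Cbr-ztf-15 was called lower without mutant replicate 1 (-0.70), and these genes are named after their values were seen.

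A further list held 6 genes linked to the receptor DAF-12 and its sterol hormone. One of them, Cbr-din-1, has a C. elegans counterpart that partners DAF-12 and does not supply the hormone. All but Cbr-ncr-1 were listed for Cbr-ivph-3 on these libraries, so nothing is read from their directions or counts. Cbr-daf-9, the cytochrome P450 gene of the last step in C. elegans, had 31.2 to 37.5 CPM in wild type and 8.72 to 16.1 CPM in the mutant. Cbr-daf-36, the Rieske oxygenase gene of the first step, had 11.3 to 12.8 CPM in wild type and 17.6 to 19.8 CPM in the mutant. Every mutant library was below wild type for Cbr-daf-9 and above wild type for Cbr-daf-36. Of the 6 genes in the list, 2 were called higher, 2 lower and 2 did not pass, beside 21.5% of all tested genes called. Without wild-type replicate 1, 2 or 3 the calls were 0, 0 or 0 higher and 0, 1 or 1 lower. Without mutant replicate 2 or 3 they were 0 or 2 higher and 1 or 1 lower. Without mutant replicate 1 they were 2 higher and 3 lower, when 59.7% of all tested genes were called in either direction.

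The 5 heterochronic timing genes, also chosen on these libraries, were lower in every mutant library, beside 20.1% of all tested genes (4 of the 5 with library totals alone, beside 9.66%). Cbr-blmp-1 and Cbr-lin-42 were also counted among the transcription factors of other classes, so the lists are not separate. Of the 5 timing genes, edgeR called 3 lower, beside 9.80% of all tested genes. That count was 0, 1 or 1 without wild-type replicate 1, 2 or 3, 1 or 1 without mutant replicate 2 or 3, and 5 without mutant replicate 1, when 28.6% of all tested genes were called lower. Nothing is read from these counts. Cbr-lin-42, the Period homolog whose transcript oscillates with the molts in C. elegans, had 475, 480.3 and 439 CPM in wild type and 309, 102 and 115 CPM in the mutant. Mutant replicate 1 was again between the other mutant libraries and wild type (log2 fold change -1.41, standard error 0.43), and it was not called with this library and called lower without it (-2.10). Cbr-mab-10 and Cbr-lin-41 had log2 fold changes of -1.55 and -1.29, and of -2.02 and -1.75 without mutant replicate 1. Cbr-dre-1 had -0.48, and -0.39 without that library.

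**Figure D5:**
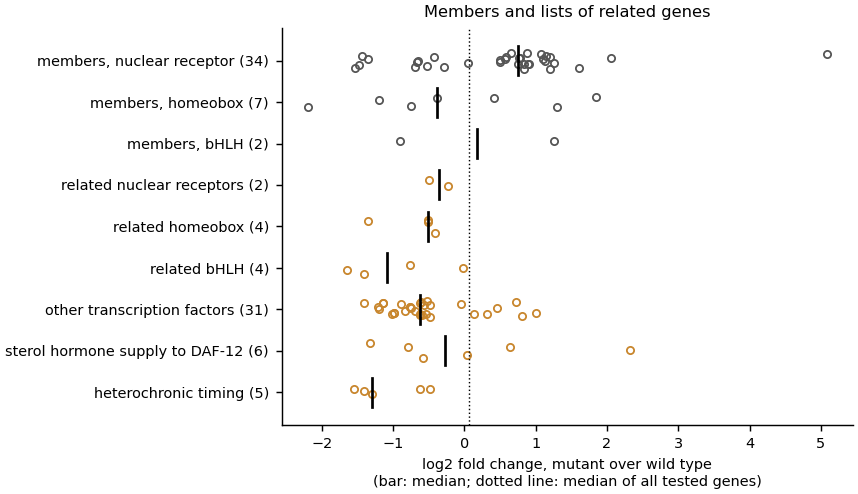
Log2 fold change of mutant over wild type for the tested members by family (grey) and for the lists of related genes (orange), with 1 circle per gene, a bar at the median and a dotted line at the median of all tested genes, 0.06. Vertical scatter within a row has no meaning, and the number of genes is in brackets. The row labelled sterol hormone supply to DAF-12 also holds Cbr-din-1, which does not supply the hormone. The median lies at 0.76 for the member receptors and at -0.62 for the other transcription factors. Most of the genes shown were chosen on these libraries, so nothing is read from the medians.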

How the data were processed

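Libraries were made from total RNA of whole hermaphrodites with a kit that does not mark strand. Per the labels and the study's methods, the authors processed paired-end reads with MultiQC, STAR (WS279 genome) and featureCounts at a reverse-stranded setting and deposited raw counts of read pairs per gene; tool versions are not given in the sources used here, and the strand setting could not be checked. Tables of the authors' own comparisons were used only for the names of genes.

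Counts of 6 libraries (3 per genotype) were tested with edgeR 4.0.16 in R 4.3.3 (TMM scaling, filterByExpr defaults, robust glmQLFit, glmQLFTest, genotype as the only term, Benjamini-Hochberg adjustment over 14241 genes, threshold 0.05). Standard errors were taken as the size of the log2 fold change divided by the square root of F. As alternatives, libraries were scaled by their totals, by the upper quartile or by the size factors of DESeq2; genes were kept at 1 count in any library or at 10 counts in every library; DESeq2 1.42.0 and limma-voom (limma 3.58.1) replaced edgeR; the replicate number was a block; and each library was left out in turn. The scripts were checked on simulated counts. The replicates are labelled as independent biological replicates.

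Members, lists and tests were chosen with earlier results of these data known. The gene lists pair 3900 identifiers with a locus name and 1860 with a symbol. Members given in each library are the 7 not chosen on these libraries, 8 with a well studied C. elegans counterpart, up to 5 per family and direction with the largest log2 fold change among those with a mean of at least 1 CPM in either genotype, and neighbours in the RefSeq CB4 gene order; other members are given by ranges. The plan to count the whole families from RefSeq names could not be carried out, since of 204 family genes named there 37 could be linked to a count-table identifier, 36 of them members and the other Cbr-pros-1. Cbr-lim-8 was taken off the list of related homeobox genes before its value was looked at, because it is not a homeobox gene. Intervals and limits for 0 counts (3 counts) cover counting error only, at 95%.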

Additional observations from a re-analysis of the deposited data

How the results depend on the processing

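Log2 fold changes of the 43 tested members kept their sign in 596 of 599 values under 14 alternatives; the exceptions were Cbr-nhr-20 with library totals (0.031) and Cbr-nhr-45 without wild-type replicate 2 (-0.058) or mutant replicate 1 (-0.090), whose values with 1 library left out ran from -0.090 to 0.13. Library totals gave 3280 genes higher and 646 lower over all tested genes, where the other alternatives that kept all libraries gave 1236 to 1914 higher and 1072 to 1951 lower. Leaving out 1 library gave 605 to 4497 genes higher and 625 to 4147 lower, and 0 to 2 higher and 1 to 1 lower among the 7 members chosen through Cbr-spr-4 or Cbr-htz-1, the 0 being found without any 1 of the wild-type replicates and the 2 without any 1 of the mutant replicates. The deviations of same-numbered libraries from their genotype means correlated by 0.16, 0.18 and -0.07, so the numbers were not taken as pairs; a replicate block left 1236 genes higher and 1100 lower, and 16 members higher and 9 lower. Depth limits Cbr-ceh-81, Cbr-nhr-247.2 and the wild-type level of Cbr-nhr-38. With 3 libraries per genotype, calls fell steeply when a wild-type library was left out, and the cause was not tested. DESeq2 changed the scaling and filter along with the test.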
